A study of Mus musculus with 50 samples.

Results

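Mouse embryonic stem cells that lack all 3 Ythdf genes were followed for 8 h after transcription was blocked with actinomycin D, to see which transcripts still fell and which held their level. The comparison set the 4 Triple_KO libraries of 8 h against the 4 of 0 h, with 2 libraries of 4 h between them, so that 10 of the 50 libraries of the study were described and the 10 WT libraries were used beside them. Both genotypes are cells of the KH2 line on a C57BL/6 x 129/Sv background, grown in serum with LIF, plated on gelatin and given 5 µM actinomycin D for 0, 4 or 8 h. Triple_KO is labelled Ythdf1-/-Ythdf2-/-Ythdf3-/-, and the number of clones behind it is not stated. Each genotype and time has replicates A and B, with duplicate libraries of each replicate at 0 h and 8 h and a single library at 4 h. Whether A and B came from separate cultures is not stated in the labels, so p-values measure only the spread between these samples, which may be technical.

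YTHDF1, YTHDF2 and YTHDF3 are the cytoplasmic readers of m6A (N6-methyladenosine), a methyl mark on adenosines of mRNA that lies mainly near stop codons, in 3′ UTRs and in long internal exons. YTHDF2 recruits the CCR4-NOT complex, which shortens the poly(A) tail and starts decay of the mRNA, and the 3 readers share most of their targets. In stem cells m6A marks many mRNAs of pluripotency regulators, and when transcription is blocked the level of an mRNA reports how long it lasts. Actinomycin D stops new synthesis of all mRNAs, so a transcript that lasts long gains a share of the library while others are lost, without any new transcription.

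Values are reads scaled to the library total (FPM, the same unit as RPM) from 3′ end poly(A) RNA-seq, with no length correction. Fold changes are differences of log2(FPM + 1), which understates the change of low genes, with the standard error from limma, and adjusted p-values are limma's after Benjamini-Hochberg adjustment over 9042 genes tested (n = 2 replicates per genotype and time, duplicates averaged first). A gene is called when this p is under 0.05. The Triple_KO libraries held 1362769 to 2076140 reads, so that 1 read was worth 0.482 to 0.734 FPM. The WT libraries held 875830 to 1698720, with 1 read worth 0.589 to 1.14 FPM. Of 12 markers of embryonic stem cells, 11 had a mean of at least 20 FPM in Triple_KO at 0 h, with 707 FPM of Pou5f1, and the exception was Nanog with 2.58 FPM. Of 12 fibroblast markers, 8 had a mean of at least 5 FPM in Triple_KO at 8 h and at 0 h, and their summed level was 437 to 548 FPM at 8 h, against 320 to 374 FPM at 0 h. In WT the sum was 335 to 376 FPM at 8 h, against 172 to 186 FPM at 0 h. Of their defining genes, Col1a1, Thy1 and Col1a2 had means of 38.4, 18.9 and 15.1 FPM in Triple_KO at 0 h, whereas Lum was at 0 in all Triple_KO libraries of 0 h, and Pdgfra, Dcn and Col3a1 had means of 0.135, 0.540 and 2.20 FPM there. Their part in the results was not tested, and in bulk RNA fewer cells of a type and less RNA per cell cannot be told apart. Of 10 endoderm markers, only Sparc and Lama1 reached 5 FPM in Triple_KO at 0 h.

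The targeted genes could not check the labels, since reads were counted near the 3′ end and the edited stretch is not given in the sources used here. Ythdf1 (chr2:180904377-180920936, GRCm38.p6) had 27.8, 21.6, 20.4 and 20.02 FPM in the Triple_KO libraries of 8 h, against 41.1, 41.5, 48.1 and 39.5 FPM at 0 h. Ythdf2 (chr4:132184916-132212256) had 49.1, 37.5, 52.9 and 41.8 FPM at 8 h, against 71.8, 93.02, 82.6 and 97.3 FPM at 0 h. Neither gene's groups overlapped, and each transcript was lower at 8 h in Triple_KO, Ythdf1 changing by -0.90 ± 0.23 (log2 change, adjusted p = 0.00183) and Ythdf2 by -0.91 ± 0.23 (adjusted p = 0.00121). Under median or TMM scaling neither was called, nor was Ythdf1 without replicate B, or Ythdf2 without either replicate. Ythdf3 (chr3:16183148-16217037) had 24.2, 10.1, 20.4 and 19.4 FPM at 8 h, against 14.7, 20.49, 23.8 and 26.97 FPM at 0 h. Its groups overlapped, its change was -0.23 ± 0.29 (adjusted p = 0.595), and under median scaling, TMM and DESeq2 the sign was positive. In WT all 3 transcripts fell, with log2 changes of -2.30 for Ythdf1, -2.23 for Ythdf2 and -1.28 for Ythdf3. The difference between genotypes was called for Ythdf1 (1.40 ± 0.33, adjusted p = 0.00279) and for Ythdf2 (1.31 ± 0.32, adjusted p = 0.00429), and for Ythdf3 it was 1.04 ± 0.42 (adjusted p = 0.123). Under median or TMM scaling the difference was called for none of the 3 genes.

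Many transcripts still fell with all 3 readers lost. After 8 h in Triple_KO, 2645 of the 9042 genes were called (29.3%), of which 2334 were lower (25.8%) and 311 higher (3.44%), and each of these changes had the same sign in both replicates. The median change of all genes was -0.39, against which single genes are to be read. After 8 h in WT, 5149 genes were called (56.9%), 4993 lower (55.2%) and 156 higher (1.73%), with a median of -0.81. Counts and medians of the gene lists below are to be read beside these shares and medians of all genes. The share of the library in the listed genes was 41.1 ± 1.48% at 8 h, against 44.3 ± 0.72% at 0 h (SD, n = 4 libraries each), while in WT it was 33.2 ± 0.266% and 43.3 ± 0.655%. No spike-in is named in the labels. Scaling each library to its median gene moved the median 8 h change of Triple_KO by 0.55 and gave 1835 higher and 715 lower genes, and TMM scaling moved it by 0.35 and gave 1178 higher and 1097 lower. DESeq2 on the recovered whole reads, with its own size factors, gave 1451 higher and 1486 lower, and edgeR on the same reads with the library totals gave 499 and 3544. Under all 3 scalings (library total, median and TMM), 715 genes were lower and 310 higher in Triple_KO, and in WT 1287 were lower and 156 higher. Both alternatives moved these changes up, so staying called under all 3 limits the falls, while nearly every rise was bound to stay. Without replicate A of Triple_KO 1005 genes were called, and without replicate B 1075. In the single knockouts the same test called 5058 genes in Ythdf1_KO (55.9%), 5721 in Ythdf2_KO (63.3%) and 5455 in Ythdf3_KO (60.3%), with medians of -0.77, -0.92 and -0.83, and their difference from Triple_KO was not tested.

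**Figure D1:**
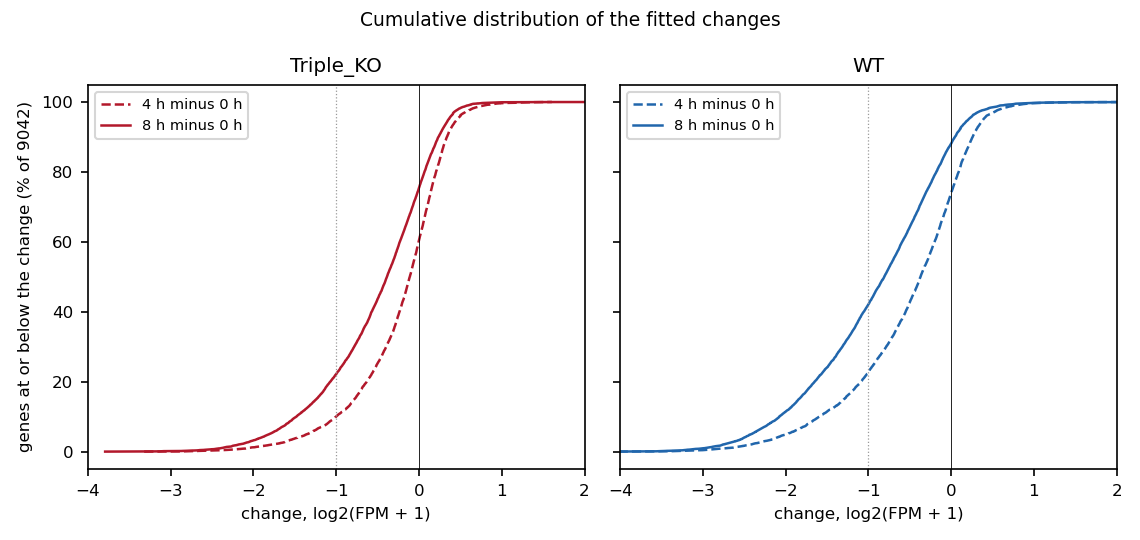
Cumulative share of the 9042 genes tested (vertical axis, %) at or below a fitted log2(FPM + 1) change (horizontal axis) after 4 h and 8 h of actinomycin D, in Triple_KO (left) and WT (right); the dotted line marks -1. The 8 h curve of Triple_KO lies to the right of that of WT, with medians of -0.39 and -0.81.

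A missed p-value does not show that a level held, so holding was read from the 95% interval of the change. In Triple_KO 444 genes (4.91%) had an interval wholly below -1 and are called lost here, and 1156 genes (12.8%) had one wholly within -0.5 to 0.5 and are called held. In WT there were 1518 lost genes (16.8%) and 828 held genes (9.16%). Most of what was lost in Triple_KO was lost in WT too: 372 of the 444 genes, or 83.8%, while none of the 444 held in WT. Of the 1518 genes lost in WT, 24.5% were lost in Triple_KO and 11 genes, or 0.725%, held there. Of the 1156 genes that held in Triple_KO, 594 held in WT, which is 51.4% of the held genes of Triple_KO and 71.7% of those of WT. The lost genes had a median level of 5.26 FPM at 8 h, against 26.7 FPM at 0 h, and the held genes 103.7 and 103.5 FPM. Holding needs a narrow interval, which low genes do not have: by quintile of level at 0 h, none of the genes in the lowest 2 quintiles held, and 0.677%, 12.5% and 50.8% of those in the other 3. The held genes and their levels therefore describe abundant transcripts, and a low gene outside the class may have kept its level too. Together the held genes took 24.03% of the library at 8 h, against 22.1% at 0 h. These classes depend on the scaling, with 80 lost and 293 held genes under median scaling and 161 and 582 under TMM. Without replicate A of Triple_KO there were 211 lost and 582 held genes, and without replicate B 237 and 567.

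**Figure D2:**
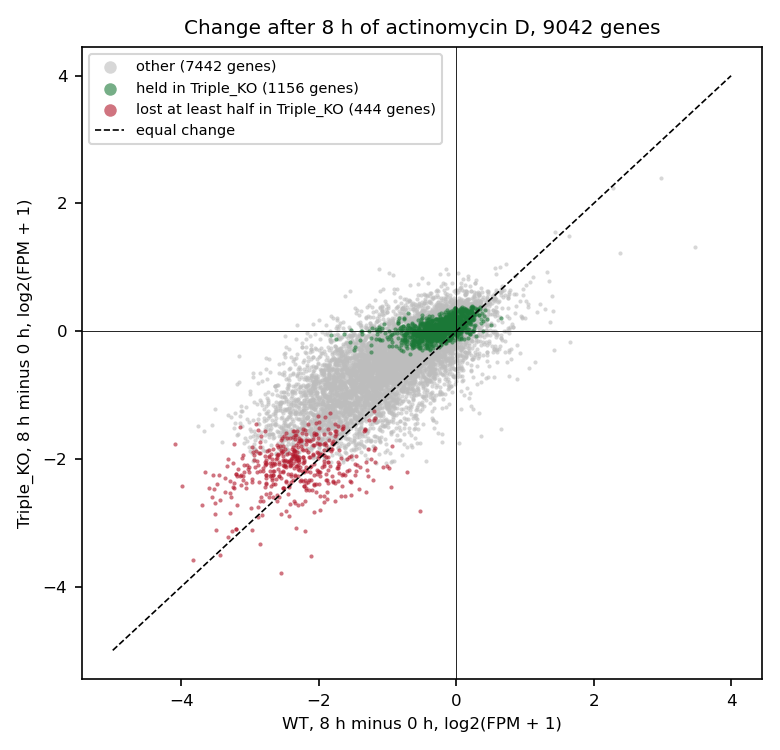
Change of each of the 9042 genes after 8 h, as the difference of log2(FPM + 1), in Triple_KO (vertical axis) against WT (horizontal axis); the dashed line marks equal change. Red points are the 444 genes lost and green points the 1156 genes held in Triple_KO, and most points lie above the dashed line.

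The largest falls in Triple_KO included chromatin, signalling and cell cycle genes. Phf13 (chr4:151989631-151996179), which encodes a PHD finger protein that reads a histone mark, had 0, 1.44, 0 and 2.94 FPM at 8 h, against 21.5, 26.02, 25.4 and 21.2 FPM at 0 h. Nodal (chr10:61417972-61425338), a secreted TGF-beta family ligand, had 8.79, 18.8, 8.29 and 9.42 FPM at 8 h, against 95.1, 109, 103 and 97.8 FPM at 0 h. Sgk1 (chr10:21882184-21999903), a serum-induced kinase, had 2.93, 13.7, 8.93 and 11.2 FPM at 8 h, against 74.2, 78.6, 79.4 and 74.2 FPM at 0 h. In none of the 3 genes did the groups overlap, although the highest 8 h library of Nodal stood apart from the other 3. Phf13 changed by -3.79 ± 0.44 on the log2 scale (adjusted p = 2.82e-10), Nodal by -3.13 ± 0.27 (adjusted p = 6.79e-15) and Sgk1 by -3.08 ± 0.26 (adjusted p = 1.39e-15). Ccn1, a matricellular protein of the immediate-early response, had 4.39, 7.94, 4.46 and 1.77 FPM at 8 h, against 63.8, 52.6, 50.8 and 65.5 FPM at 0 h. Fbxo5, which encodes the inhibitor of the anaphase-promoting complex EMI1, had 5.86, 12.3, 8.29 and 9.42 FPM at 8 h, against 81.6, 93.02, 76.7 and 82.8 FPM at 0 h. Both sets stood clear of each other, with log2 changes of -3.50 ± 0.35 for Ccn1 and -3.12 ± 0.31 for Fbxo5. Among the 10 largest falls of genes with a mean of at least 20 FPM at 8 h or 0 h were also Mroh8 (-3.58 ± 0.48), the zinc finger gene Zfp296 (-3.22 ± 0.29) and the Wnt receptor Fzd10 (-3.11 ± 0.41). The histone H2A genes H2ac24 and H2ac23 (-3.11 and -3.10) completed them, and since their values were nearly the same in every library, reads of these near-identical copies could not be told apart. All 10 were lower in Triple_KO in every alternative run, and in WT their changes ran from -3.83 to -2.33. The difference between the genotypes was called for none of the 10. They were picked as the largest falls in Triple_KO, which disfavours genes that fell less there than in WT. Phf13 was also near 0 FPM at 8 h, where a larger fall could not show. The missing calls therefore do not show equal falls.

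**Figure D3:**
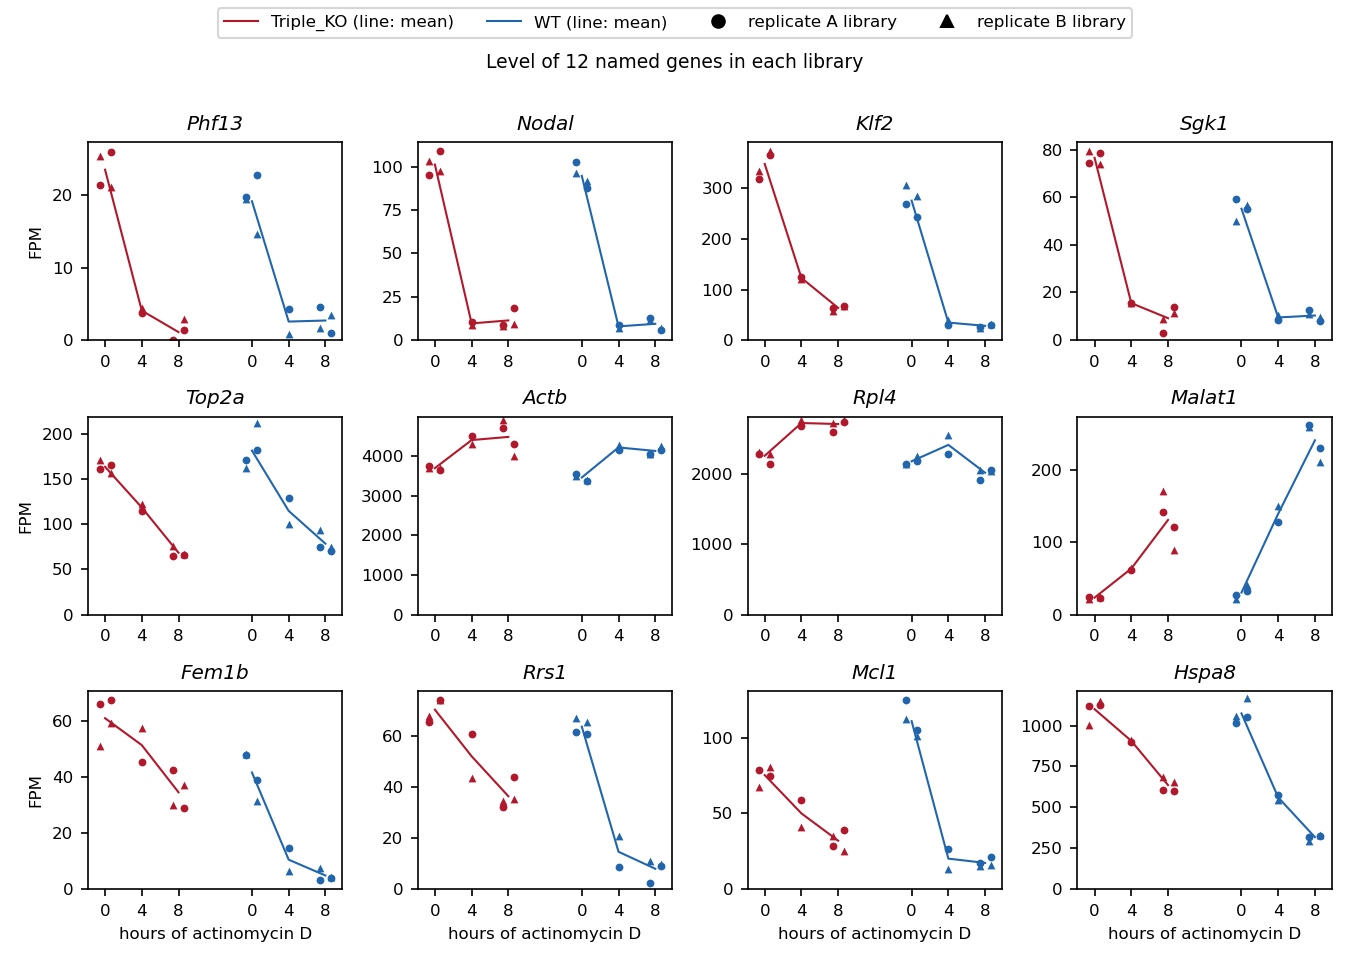
Level in FPM (vertical axes, from 0) of 12 named genes in each library at 0, 4 and 8 h (horizontal axes), with Triple_KO in red at the left of each panel and WT in blue at the right; circles are replicate A, triangles replicate B and lines join the means. Phf13, Nodal, Klf2 and Sgk1 fall in both genotypes, Actb and Rpl4 hold, and Fem1b, Rrs1, Mcl1 and Hspa8 end higher in Triple_KO than in WT.

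Most naive pluripotency factors fell in Triple_KO, while the core regulators were divided and Pou5f1, the most abundant of them, rose. Klf2, a Krüppel-like transcription factor, had 62.98, 67.8, 56.8 and 66.5 FPM at 8 h, against 318, 366, 335 and 374 FPM at 0 h. Klf4, its relative and a target of LIF signalling, had 29.3, 25.98, 25.5 and 20.02 FPM at 8 h, against 169.9, 142, 128 and 162 FPM at 0 h. Neither gene's groups overlapped, and the changes were -2.44 ± 0.16 for Klf2 and -2.54 ± 0.20 for Klf4 (adjusted p = 1.45e-19 and 7.79e-17). Of 21 naive pluripotency genes tested, 17 were lower and none was higher, with 10 lower under all 3 scalings, and the median change was -1.28 in Triple_KO and -1.78 in WT. For Klf2 the fall was smaller in Triple_KO than in WT by 0.81 ± 0.23 (adjusted p = 0.0177), and this difference was not called under all 3 scalings. Of 23 core pluripotency genes, 14 were lower and 2 higher, with a median of -0.58 in Triple_KO and -1.23 in WT. Those higher were Pou5f1, which encodes OCT4, with a mean of 923 ± 70.05 FPM at 8 h, against 707 ± 15.1 FPM at 0 h (SD, n = 4 libraries each), and Dppa5a, an RNA-binding protein of stem cells, with 797 ± 35.7 FPM at 8 h, against 612 ± 23.9 FPM at 0 h. They rose by 0.38 ± 0.05 and 0.38 ± 0.05 (adjusted p = 4.63e-08 and 1.05e-09) and were named after their values were seen. Of the 23, 8 held, these 2 among them. Sox2, a partner of OCT4 on DNA, had 30.8, 28.9, 26.8 and 20.02 FPM at 8 h, against 121, 136, 126 and 131 FPM at 0 h. Utf1, a chromatin-associated pluripotency factor, had 27.8, 27.4, 25.5 and 35.3 FPM at 8 h, against 92.6, 79.7, 80.4 and 98.7 FPM at 0 h. Both fell without overlap, Sox2 changing by -2.25 ± 0.22 and Utf1 by -1.57 ± 0.19, whereas Trim28, a corepressor that silences retroviral elements, was within the bounds of holding at -0.18 ± 0.05 (adjusted p = 0.00587) and had the opposite sign under median scaling, TMM and DESeq2. Of 35 transcripts recalled from general knowledge as m6A-marked in stem cells, 33 were lower in Triple_KO and 33 in WT. This was 94.3% in each, beside 25.8% and 55.2% of all genes. The medians were -1.64 and -2.23, beside -0.39 and -0.81 for all genes, and 18 were lower in Triple_KO under all 3 scalings. Their median difference between genotypes was 0.56, beside 0.37 for all genes.

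Short-lived mRNAs of the immediate-early response had the lowest median among the lists in the plot of list medians, although a larger share of the m6A-marked list was lower (94.3%, against 84.4% here). Of 32 tested, 27 were lower and none higher, 18 of them under all 3 scalings, with a median of -1.86 in Triple_KO and -2.57 in WT. Pim3, a serine kinase induced by LIF, had 7.32, 13.7, 12.1 and 6.48 FPM at 8 h, against 54.6, 59.8, 61.5 and 59.2 FPM at 0 h, a change of -2.51 ± 0.24 with no overlap. Of 14 LIF and STAT3 pathway genes 8 were lower (median -1.08 in Triple_KO and -1.68 in WT), and Tfcp2l1, a transcription factor downstream of STAT3, changed by -0.80 ± 0.09. Of 12 genes of FGF and ERK feedback 6 were lower (median -0.84 in Triple_KO and -1.88 in WT). Fgf4, the FGF ligand made by stem cells, changed by -2.60 ± 0.25, and Etv5, an ETS factor induced by ERK, by -0.90 ± 0.13. Of 16 Wnt pathway genes 9 were lower and none higher (median -1.13 in Triple_KO and -1.05 in WT). Here Dvl2, a cytoplasmic transducer, changed by -1.13 ± 0.15 and the receptor Fzd5 by -1.89 ± 0.32, while Ctnnb1, which encodes beta-catenin, had 292 ± 7.84 FPM at 8 h, against 304 ± 11.9 FPM at 0 h (SD, n = 4 libraries), a change of -0.06 ± 0.07 within the bounds of holding that was positive under median scaling, TMM and DESeq2. Of 8 genes of the Myc, Max and Mxd network 3 were lower (37.5%, beside 25.8% of all genes), with a median of -0.59 in Triple_KO and -1.61 in WT. Mycn changed by -2.23 ± 0.38 and the repressor Mnt by -2.21 ± 0.47, and Mxd3, an antagonist of Myc, held at 0.04 ± 0.11.

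Zinc finger genes and histone lysine methyltransferases and demethylases fell widely, and DNA methylation genes were lower about as often as all genes. Of 185 Zfp genes tested 116 were lower and none higher, 56 under all 3 scalings, with a median of -1.34 in Triple_KO and -1.80 in WT. Zfp42, the stem cell marker also known as Rex1, had 21.2, 20.2, 22.3 and 17.1 FPM at 8 h, against 105, 124, 107 and 117 FPM at 0 h, a change of -2.43 ± 0.21, and Zfp57, which protects imprints, changed by -1.08 ± 0.10. Of 40 histone lysine methyltransferases and demethylases 24 were lower (median -1.07 in Triple_KO and -1.39 in WT). Setd5 changed by -1.59 ± 0.16 and Jarid2, a Polycomb partner, by -1.44 ± 0.19. Of 11 DNA methylation genes 3 were lower (27.3%, beside 25.8% of all genes), with a median of -0.29 in Triple_KO and -0.83 in WT that turned positive under median scaling and TMM (0.31 and 0.09). Among them Tet2, which oxidises 5-methylcytosine, changed by -1.28 ± 0.21, and Uhrf1, which brings DNMT1 to replicated DNA, changed by -0.22 ± 0.08 within the bounds of holding and was positive under median scaling, TMM and DESeq2.

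Transcripts of the RNA decay machinery itself were among those that fell. Of 17 genes of the CCR4-NOT list 7 were lower and none higher, 4 under all 3 scalings (median -0.88 in Triple_KO and -1.30 in WT). Cnot2, a core module subunit, had 8.06, 12.99, 12.1 and 14.1 FPM at 8 h, against 47.8, 49.8, 40.5 and 51.5 FPM at 0 h, and Cnot1, the scaffold, had 54.2, 49.8, 45.9 and 38.9 FPM at 8 h, against 88.9, 88.6, 89.1 and 94.9 FPM at 0 h. Neither overlapped, and they changed by -1.94 ± 0.27 and -0.93 ± 0.14. Of 37 decapping and exonuclease genes 18 were lower (48.6%, beside 25.8% of all genes) and 1 higher. Their median was -0.53 in Triple_KO and -0.85 in WT, beside -0.39 and -0.81 for all genes. Under median scaling it was 0.06 in Triple_KO. Ddx6, a helicase of decapping, changed by -0.99 ± 0.14, less than in WT by 0.76 ± 0.19 (adjusted p = 0.00609), a difference that was not called under all 3 scalings. Exosc6, an exosome subunit, changed by -1.37 ± 0.23, and Lsm4, of the LSM ring that binds deadenylated ends, rose by 0.38 ± 0.10. Of 18 other genes of the m6A pathway 9 were lower and none higher (median -0.67 in Triple_KO and -1.34 in WT). Of these Wtap, a subunit of the methyltransferase complex, changed by -1.49 ± 0.27 and the reader Igf2bp1 by -1.39 ± 0.12, and Hnrnpa2b1 held at 0.07 ± 0.08.

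Cell cycle and p53 target genes fell in part. Of 42 mitosis genes 25 were lower and none higher, 7 under all 3 scalings (median -0.81 in Triple_KO and -1.06 in WT). Top2a, the mitotic topoisomerase, had 64.4, 66.4, 75.9 and 67.1 FPM at 8 h, against 161, 166, 171 and 157 FPM at 0 h, and Ccnb1, cyclin B1, changed by -1.76 ± 0.18. Birc5, the chromosomal passenger protein survivin, held in Triple_KO at 0.13 ± 0.08 and differed from WT by 0.62 ± 0.11 (adjusted p = 5.59e-05), which was not called under all 3 scalings. Of 54 G1/S and replication genes 25 were lower (46.3%, beside 25.8% of all genes). Their median was -0.45 in Triple_KO and -0.82 in WT, close to the medians of all genes (-0.39 and -0.81). Under median scaling it was 0.09 in Triple_KO. Cdt1, a licensing factor of replication origins, had 11.7, 13.7, 10.2 and 12.4 FPM at 8 h, against 84.6, 96.3, 80.99 and 89.1 FPM at 0 h, and Cdk4 held at 0.09 ± 0.07. Cdt1 was lower in every library of 8 h and changed by -2.78 ± 0.22. Of 27 p53 targets 16 were lower (median -1.10 in Triple_KO and -1.23 in WT), with Cdkn1a, the cyclin-dependent kinase inhibitor p21, at -1.87 ± 0.19 and Ei24 at -1.36 ± 0.13. Of 10 Bcl2 family genes 4 were lower (40%, beside 25.8% of all genes). Their median was -0.56 in Triple_KO and -0.76 in WT, and 0.02 under median scaling in Triple_KO. The proapoptotic Bbc3 changed by -2.27 ± 0.32, while Bax had 491, 507, 513 and 493 FPM at 8 h, against 468, 489, 455 and 472 FPM at 0 h, with the 8 h libraries all above those of 0 h but a change of 0.09 ± 0.06 that did not pass the test (adjusted p = 0.294). Mcl1, an antiapoptotic protein with a short-lived mRNA, changed by -1.23 ± 0.20 in Triple_KO and by -2.62 ± 0.20 in WT, a difference of 1.39 ± 0.28 (adjusted p = 3.43e-04) that was not called under all 3 scalings.

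The held genes with the highest levels included those of the cytoskeleton and of protein synthesis. Of the 6 held genes with the most reads at 0 h, Actb, cytoplasmic actin, had 4713, 4299.7, 4918 and 4001 FPM at 8 h, against 3755, 3639.8, 3689.7 and 3695 FPM at 0 h. Tuba1b, an alpha tubulin, had 2231, 2322, 2446 and 2273 FPM at 8 h, against 2321, 2241, 2344 and 2328 FPM at 0 h. The 8 h libraries of Actb lay above all those of 0 h, with a change of 0.27 ± 0.03 (adjusted p = 4.18e-10), while those of Tuba1b overlapped, with a change of 0.01 ± 0.04 (95% interval -0.07 to 0.08). The other 4 were Eef1a1, the elongation factor that brings aminoacyl-tRNA to the ribosome, Ftl1, ferritin light chain, and the ribosomal protein genes Rpl4 and Rps20, with changes of 0.16, 0.35, 0.26 and 0.32. A gene can both be called higher and hold, since the bounds of holding are -0.5 and 0.5.

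Ribosomal protein and respiratory chain mRNAs rose as a share of the library. Of 84 cytosolic ribosomal protein genes 67 were higher and none lower, with a median of 0.30 in Triple_KO and 0.01 in WT, and 59 held. All 67 stayed higher under median and TMM scaling, which both moved changes up, so that was no further test of the rise. Rplp0, of the ribosomal stalk, had 2769, 2846, 2876 and 2649.7 FPM at 8 h, against 1913, 1866, 1882 and 2034 FPM at 0 h, and Rplp1 rose by 0.47 ± 0.04. All 8 h libraries of Rplp0 exceeded all those of 0 h, a rise of 0.53 ± 0.04 (adjusted p = 1.97e-18). Of 76 nuclear genes of oxidative phosphorylation 38 were higher and none lower, with a median of 0.29 in Triple_KO and 0.03 in WT. These 38 stayed higher under both scalings too, for the same reason. Examples are Cox6a1, a subunit of cytochrome c oxidase, at 0.41 ± 0.06 and Atp5b, the catalytic subunit of ATP synthase, at 0.31 ± 0.05. Of 24 glycolysis genes 6 were higher and 3 lower (median 0.10 in Triple_KO and -0.16 in WT). Pkm, pyruvate kinase, rose by 0.28 ± 0.04, and Slc2a3, a glucose transporter, changed by -0.45, with a positive sign under median scaling. Among the 10 largest rises of genes with a mean of at least 20 FPM were also Anxa5, an annexin, at 0.75 ± 0.25, Lars2, mitochondrial leucyl-tRNA synthetase, at 0.90 ± 0.18, Gnas, a G protein alpha subunit, at 0.68 ± 0.13, Mien1 at 0.61 ± 0.21 and Phyh, a peroxisomal enzyme, at 0.57 ± 0.23. Their adjusted p-values were 4.60e-05 for Lars2, 6.72e-05 for Gnas, 0.0172 for Anxa5, 0.0243 for Mien1 and 0.0484 for Phyh, and the last 3 lost their call when either replicate of Triple_KO was left out (0.0824 to 0.472).

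**Figure D4:**
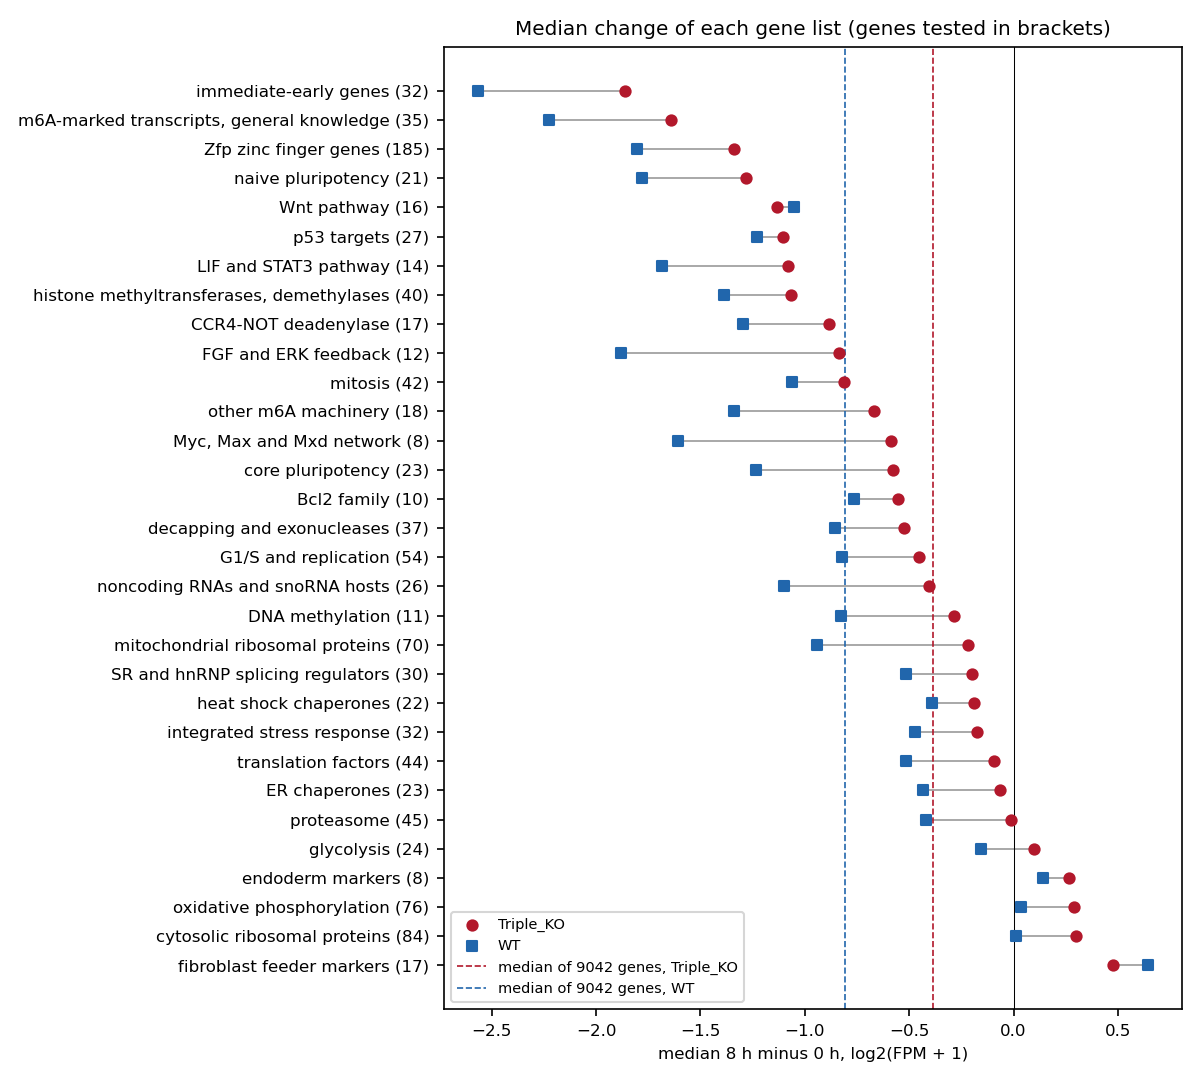
Median change after 8 h, as the difference of log2(FPM + 1) (horizontal axis), of the members tested in each gene list (rows, number tested in brackets), with Triple_KO as red circles and WT as blue squares. Dashed lines are the medians of all 9042 genes, -0.39 in Triple_KO and -0.81 in WT; immediate-early genes lie lowest, and ribosomal protein and oxidative phosphorylation genes lie above 0 in Triple_KO.

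The nuclear noncoding RNA Malat1 had the largest rise. It had 143, 121, 172 and 89.5 FPM in Triple_KO at 8 h, against 24.5, 22.7, 22.1 and 24.6 FPM at 0 h, and 263, 232, 261 and 212 FPM in WT at 8 h, against 26.5, 32.96, 21.2 and 41.2 FPM at 0 h. The groups stood apart in both genotypes, with a rise of 2.40 ± 0.15 in Triple_KO (adjusted p = 1.03e-21) and of 2.98 ± 0.15 in WT, and the difference was -0.59 ± 0.21 (adjusted p = 0.0670). Of 26 noncoding RNAs and snoRNA hosts tested 9 were lower (34.6%, beside 25.8% of all genes) and 2 higher. Their median was -0.40 in Triple_KO and -1.10 in WT, and 0.13 in Triple_KO under median scaling. Snhg5, a host of snoRNAs, changed by -2.24 ± 0.26, and Gas5 by -0.42 ± 0.14, with a positive sign under median scaling. Some fibroblast markers rose: of 17 tested 4 were higher and none lower (median 0.48 in Triple_KO and 0.65 in WT), among them the smooth muscle actin Acta2 at 0.73 ± 0.11 and S100a6 at 0.62 ± 0.09. Fbln2 and Lox, genes of the extracellular matrix, were also among the 10 largest rises, at 0.62 ± 0.23 and 0.61 ± 0.24 (adjusted p = 0.0389 and 0.0458), and neither was called without replicate A or B of Triple_KO. The summed level of the 12 fibroblast markers, given above, was higher at 8 h in both genotypes, and its part in these rises was not tested. Of 8 endoderm genes tested Sparc was higher (0.26 ± 0.08) and Lama1 lower (-0.63 ± 0.23).

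Several housekeeping lists sat between these extremes and shifted with the scaling. Of 45 proteasome genes 26 held, 6 were lower and 4 higher, with a median of -0.01 in Triple_KO and -0.42 in WT, and 0.57 in Triple_KO under median scaling. Psmd2, of the regulatory particle, held at 0.07 ± 0.08, while the assembly chaperones Psmg3 and Psmg2 changed by -2.44 ± 0.42 and -0.98 ± 0.21. Of 44 translation factors 22 held, 12 were lower and 6 higher (median -0.09 in Triple_KO and -0.51 in WT, and 0.49 under median scaling), with Eif5a at 0.34 ± 0.05 and Eif1 at -1.34 ± 0.12. Of 30 SR and hnRNP splicing regulators 11 were lower (36.7%, beside 25.8% of all genes). Their median was -0.20 in Triple_KO and -0.51 in WT, and 0.40 in Triple_KO under median scaling. Tra2b changed by -0.96 ± 0.11 and Srsf3 by -0.65 ± 0.09, and Hnrnpl held at 0.12 ± 0.06. Of 22 heat shock chaperones 8 were lower and 1 higher (median -0.19 in Triple_KO and -0.39 in WT, and 0.40 under median scaling), and of 23 endoplasmic reticulum chaperones 4 were lower and 1 higher (median -0.06 in Triple_KO and -0.44 in WT, and 0.49 under median scaling). Hsp90ab1 held at 0.02 ± 0.04 and Dnaja2 changed by -1.33 ± 0.17. Hspa5, the chaperone BiP, held at -0.04 ± 0.06, while Xbp1, a transcription factor of the unfolded protein response, changed by -2.15 ± 0.52 and Edem1 by -1.75 ± 0.44. Of 32 genes of the integrated stress response 12 were lower (median -0.18 in Triple_KO and -0.47 in WT, and 0.42 under median scaling). Its transcription factor Atf4 had 98.1, 97.4, 94.4 and 95.96 FPM at 8 h, against 432, 404, 410.3 and 399 FPM at 0 h, a change of -2.08 ± 0.11 with no overlap, and the amino acid transporter subunit Slc3a2 changed by -0.96 ± 0.13. Under TMM scaling the medians of these 6 lists in Triple_KO were positive too, from 0.18 to 0.36.

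By 4 h the genes with the largest losses had fallen most of the way on the log2 scale. Most genes lower at 8 h were not called at 4 h, when each replicate had a single library. A missed call at 4 h does not show that the fall came later. After 4 h in Triple_KO 983 genes were called (10.9%), 690 lower (7.63%) and 293 higher (3.24%), and 621 of the 690 were lower at 8 h as well. Of the 2334 genes lower at 8 h, 1712 were not called at 4 h, and the median of all genes was -0.11 at 4 h and -0.39 at 8 h. TMM scaling gave 642 higher and 450 lower and median scaling 1005 and 337, and without replicate A or B of Triple_KO 219 and 312 genes were called. Of the 444 lost genes 318, or 71.6%, were already called lower at 4 h, and the 4 h change of a lost gene was in the median 64.1% of its 8 h change on the log2 scale, close to the 62.9% of the 1518 genes lost in WT. Nodal had 10.3 and 8.92 FPM at 4 h, and its changes were -3.27 at 4 h and -3.13 at 8 h. Cdt1 had 13.2 and 16.7 FPM at 4 h, with changes of -2.48 and -2.78. For both, the fall was called at 4 h and no further change was called from 4 h to 8 h, while Zfp42 changed by -1.25 at 4 h and -2.43 at 8 h, and Top2a by -0.46 and -1.25. From 4 h to 8 h 446 genes were called (4.93%), 430 lower (4.76%) and 16 higher (0.177%), of which 36 lower and 16 higher under all 3 scalings. That count was 17 without replicate A and 65 without replicate B of Triple_KO, and median and TMM scaling gave 428 and 285 higher. A small group of 21 genes was higher at 4 h and lower from 4 h to 8 h, Eef1a1, Tuba1b and Hsp90ab1 among them, with changes at 4 h of 0.30, 0.15 and 0.19 and at 8 h of 0.16, 0.01 and 0.02. Malat1 had 62.4 and 65.2 FPM at 4 h, between its levels at 0 h and 8 h.

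By the library total, some transcripts fell alike with and without the readers. For 522 genes the 95% interval of the difference between the 8 h changes of Triple_KO and WT lay within -0.5 to 0.5, and 55 of these were called lower in both genotypes. Besides H2ac24 and H2ac23, the largest falls among them were in Igf2bp1, a reader that stabilises mRNA, in Top2a, in Ccn2, a matricellular protein, and in Ubap2l, a protein of stress granules. Igf2bp1 had 56.4, 56.3, 59.9 and 62.4 FPM at 8 h, against 178, 158, 143 and 145 FPM at 0 h in Triple_KO, and 75.4, 65.2, 67.5 and 77.4 FPM at 8 h, against 208, 155, 174 and 159 FPM at 0 h in WT. Its change was -1.39 ± 0.12 in Triple_KO and -1.27 ± 0.12 in WT, with a 95% interval of the difference of -0.46 to 0.22. Top2a changed by -1.25 ± 0.11 in Triple_KO and -1.20 ± 0.11 in WT (interval of the difference -0.35 to 0.26). Ccn2 changed by -1.11 ± 0.16 in Triple_KO and -1.14 ± 0.16 in WT (interval -0.42 to 0.49), and Ubap2l by -1.07 ± 0.16 in Triple_KO and -1.05 ± 0.16 in WT (interval -0.48 to 0.43). These bounds rest on that scaling. Under median scaling 380 genes had an interval within them, 51 of which were among the 522, and under TMM 717, of which 249 were. None of the 6 named genes stayed within the bounds under either, with intervals for Igf2bp1 of -1.01 to -0.29 under median scaling and -0.81 to -0.14 under TMM, and for Top2a of -0.89 to -0.26 and -0.71 to -0.10. Under median scaling the fall of both was called larger in Triple_KO than in WT (adjusted p = 0.0259 and 0.0256), and under TMM it was not (adjusted p = 0.168 and 0.216).

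The test of the difference itself called 651 genes (7.2%), 649 with a smaller fall or larger rise in Triple_KO than in WT (7.18%) and 2 the other way (0.0221%). The median difference over all genes was 0.37. This direction rests on the library total: median scaling moved the median difference by -0.46 and gave 61 higher and 231 lower, TMM moved it by -0.31 and gave 94 higher and 52 lower, and DESeq2 gave 133 higher and 119 lower. Called higher under all 3 scalings were 60 genes, and 1 was lower. Since median and TMM scaling moved the differences down, staying called under all 3 tests the genes higher and not those lower. The 2 genes called lower, named here after their values were seen, were Tmem38b (-2.17 ± 0.51, adjusted p = 0.00293, called under all 3 scalings), a cation channel of the endoplasmic reticulum, and Zfp951 (-2.30 ± 0.76, adjusted p = 0.0494). Tmem38b had a mean of 12.4 ± 2.28 FPM in Triple_KO at 8 h, against 4.38 ± 0.888 FPM at 0 h, and 62.2 ± 11.1 FPM in WT at 8 h, against 5.00 ± 2.48 FPM at 0 h (SD, n = 4 libraries each). Without replicate A or B of Triple_KO 202 and 184 genes were called, and without replicate A or B of WT 418 and 353. Of the 651 genes, 208 were lower in both genotypes, and 184 were lower in WT and held in Triple_KO.

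Among genes with a mean of at least 20 FPM at 0 h in both genotypes, the 6 largest differences were in genes that fell steeply in WT. Larger still was that of Lsm10, a protein of the U7 snRNP named after its values were seen, with 20.6 FPM in Triple_KO at 8 h, against 27.6 FPM at 0 h, and 0.747 FPM in WT at 8 h, against 14.3 FPM at 0 h (means of 4 libraries). Its difference was 2.76 ± 0.58 (adjusted p = 8.37e-04), called under all 3 scalings. The WT level of Lsm10 at 8 h was below the value of 1 read, so the size of this difference is uncertain. Fem1b, a substrate receptor of a ubiquitin ligase, had 42.5, 28.9, 29.97 and 37.1 FPM in Triple_KO at 8 h, against 66.2, 67.5, 51.3 and 59.2 FPM at 0 h, and 3.43, 4.01, 7.59 and 4.40 FPM in WT at 8 h, against 48.1, 38.9, 48.3 and 31.5 FPM at 0 h. Rrs1, a factor of ribosome assembly, had 32.2, 44.02, 34.4 and 35.3 FPM in Triple_KO at 8 h, against 65.6, 74.2, 68.03 and 74.2 FPM at 0 h, and 2.28, 9.03, 10.97 and 9.68 FPM in WT at 8 h, against 61.7, 60.8, 67.1 and 65.7 FPM at 0 h. All 8 h libraries of Triple_KO lay above all those of WT for both genes, and the differences were 2.08 ± 0.37 for Fem1b (adjusted p = 4.92e-05) and 2.07 ± 0.37 for Rrs1 (adjusted p = 5.21e-05). Rpp25l, named for its likeness to a subunit of RNase P, had 38.1, 61.3, 58.03 and 54.2 FPM in Triple_KO at 8 h, against 76.1, 83.05, 87.5 and 83.3 FPM at 0 h, and 5.71, 2.01, 10.1 and 7.92 FPM in WT at 8 h, against 42.6, 48.2, 45.9 and 54.5 FPM at 0 h. Ccdc71 had 15.4, 15.2, 25.5 and 27.1 FPM in Triple_KO at 8 h, against 37.4, 34.3, 36.7 and 37.1 FPM at 0 h, and 1.14, 1.00, 1.69 and 2.64 FPM in WT at 8 h, against 27.8, 19.4, 22.4 and 20.3 FPM at 0 h. In Triple_KO neither of these changes was called, although the libraries of 8 h lay below those of 0 h (-0.65 ± 0.27 for Rpp25l and -0.83 ± 0.37 for Ccdc71), and the differences were 2.21 ± 0.38 and 2.36 ± 0.53 (adjusted p = 3.07e-05 and 0.00164). With 1 read worth 0.844 to 1.14 FPM in WT at 8 h, the level of Ccdc71 there rests on very few reads. Dnajb1, a chaperone of the HSP40 family, changed by -1.56 ± 0.39 in Triple_KO and -3.67 ± 0.39 in WT, a difference of 2.11 ± 0.55 (adjusted p = 0.00870). Rn4.5s, a small repeat-derived RNA whose copies share reads, changed by -1.77 ± 0.23 in Triple_KO and -4.09 ± 0.23 in WT. Its libraries of 0 h did not overlap between the genotypes, with 53.4, 40.97, 43.7 and 40.5 FPM in Triple_KO and 232, 239, 251 and 280.3 FPM in WT. At 8 h its means were 12.3 FPM in Triple_KO and 13.8 FPM in WT, so the genotypes differed in its level at 0 h. The difference of the changes was 2.31 ± 0.32 (adjusted p = 2.03e-07). Of these 6 genes all but Dnajb1 were called under all 3 scalings.

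Mitochondrial ribosomal protein genes fell widely in WT and less so in Triple_KO. Of 70 tested 27 had a smaller fall or larger rise in Triple_KO, beside 7.18% of all genes, with medians of -0.22 in Triple_KO and -0.94 in WT. In Triple_KO 13 were lower and 2 higher, and in WT 50 were lower. The median in Triple_KO was 0.37 under median scaling and 0.15 under TMM, and 6 of the 27 were called under all 3 scalings. Mrpl12, of the large mitochondrial subunit, had 291, 329, 361 and 344 FPM in Triple_KO at 8 h, against 298, 286, 357 and 332 FPM at 0 h, and 81.1, 101.3, 101.3 and 95.9 FPM in WT at 8 h, against 203, 221, 202 and 203 FPM at 0 h. Its level held in Triple_KO and fell in WT, a difference of 1.18 ± 0.14 (adjusted p = 1.80e-09), while Mrpl44 and Mrps35 changed in Triple_KO by -1.54 ± 0.29 and -1.09 ± 0.22. A smaller fall or larger rise was also called for 34 of 84 cytosolic ribosomal proteins, 16 of 44 translation factors, 11 of 45 proteasome genes, 9 of 76 oxidative phosphorylation genes and 7 of 21 naive pluripotency genes. In that order their median differences were 0.28, 0.37, 0.33, 0.23 and 0.65, beside 0.37 for all genes. Except for naive pluripotency these were close to or below the median of all genes, so the calls do not set those lists apart. Under all 3 scalings that left none of the ribosomal proteins, 1 translation factor, 1 proteasome gene, none of oxidative phosphorylation and 1 naive pluripotency gene, and of the cytosolic ribosomal proteins 24 were lower than in WT under median scaling and 7 under TMM. Hspa8, the constitutive HSP70, kept its call under all 3 scalings: it had 605, 603, 684 and 652 FPM in Triple_KO at 8 h, against 1121, 1128, 1000.5 and 1151 FPM at 0 h, and 321, 327, 291 and 331 FPM in WT at 8 h, against 1016, 1055, 1059.6 and 1167 FPM at 0 h, a difference of 0.97 ± 0.08 (adjusted p = 6.01e-16).

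What the falling and holding genes shared was read from 1 GENCODE M21 coding transcript per gene, found for 8761 of the 9042 genes (96.9%), as a description. The AU-rich nonamer TTATTTATT, an element known to mark short-lived mRNAs, was searched on the mRNA strand in 8702 3′ UTRs and was present in 6.34% of them. The median 8 h change in Triple_KO was -0.63 for the genes with a match and -0.37 for those without. Within quintiles of 3′ UTR length, from the shortest, these medians were -0.35 and -0.20, -0.45 and -0.30, and -0.54 and -0.41. In the next they were -0.75 and -0.43, and in the longest -0.68 and -0.59. Genes with a match had a median level of 13.1 FPM in Triple_KO at 0 h, against 19.1 FPM without, and level was not matched. The change moved with that level, with medians of -0.43, -0.61, -0.54, -0.41 and -0.06 from the lowest quintile to the highest. Genes are not independent replicates, and a match is not a bound site.

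The microRNAs of the miR-290 cluster, which are abundant in mouse embryonic stem cells and act on 3′ UTRs through bases 2 to 8, were looked at because matches to their seed could be counted in the same 3′ UTRs, after the changes had been seen. Their mature sequences, from RefSeq (GRCm38.p6, chromosome 7), share 1 seed, written in capitals.
mmu-miR-291a-3p: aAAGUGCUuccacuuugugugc
mmu-miR-294-3p: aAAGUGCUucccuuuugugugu
mmu-miR-295-3p: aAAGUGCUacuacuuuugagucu

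The match to this seed, AGCACTT, was in 14.1% of the 3′ UTRs. Its 1225 genes had a median 8 h change of -0.66 in Triple_KO, against -0.35 for the 7477 genes without it. Their median levels in Triple_KO at 0 h were 13.0 and 19.9 FPM, and level was not matched for any seed. Within the longest quintile of 3′ UTRs the medians were -0.70 and -0.55. In WT the medians were -1.10 with a match and -0.76 without. The seed of miR-92a had medians in Triple_KO of -0.60 with a match and -0.37 without over all lengths, and -0.70 and -0.59 in the longest quintile. That of miR-16 had -0.48 and -0.36 over all lengths, and -0.61 and -0.59 in the longest quintile. For let-7a, which is scarce in these cells, the medians were -0.51 and -0.38 over all lengths and -0.60 and -0.60 in the longest quintile. The gap between genes with and without a match was smaller in the longest quintile than over all lengths for each of these 4 seeds. In the middle quintile the 4 seeds differed. There the medians with and without a match were -0.64 and -0.39 for AGCACTT and -0.55 and -0.41 for miR-92a. For miR-16 they were -0.45 and -0.41, and for let-7a -0.42 and -0.41. In the second longest quintile AGCACTT and miR-92a were alike, with -0.59 and -0.43 for AGCACTT and -0.59 and -0.44 for miR-92a. There miR-16 had -0.43 and -0.47, and let-7a -0.43 and -0.45.

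The changes went with gene structure in both genotypes, and the difference between them went with the density of exon junctions. For the 1588 genes whose longest internal exon reached 400 nt, long internal exons being a place that m6A sites favour, the median 8 h change was -0.76 in Triple_KO and -1.23 in WT, against -0.31 and -0.71 for the other 7173. By exon junctions per kb of transcript, the quintile with the fewest had medians of -0.70 in Triple_KO and -1.35 in WT, and the quintile with the most -0.22 and -0.50. The median difference between genotypes was 0.53 in the first of these and 0.29 in the last, with the 3 quintiles between them in order. By the length of the longest internal exon the median difference was 0.43 from 400 nt up and 0.36 below it. These groups had median levels of 14.5 and 19.8 FPM in Triple_KO at 0 h, and level was not matched. The lost genes of Triple_KO had a median of 2.06 junctions per kb and the held genes 4.10, and among the 1768 genes in the highest quintile by level at 0 h the medians were 2.22 for 86 lost genes and 4.11 for 898 held genes. By density of GGACT, a common m6A sequence, the medians in Triple_KO were -0.32 in the quintile with the least, -0.46 in the middle one and -0.31 in the quintile with the most. The median difference between genotypes was 0.33 in the quintile with the least GGACT, 0.36, 0.36 and 0.40 in the next 3 and 0.40 in the quintile with the most. Longer coding sequences went with larger falls in Triple_KO, -0.07 in the shortest quintile and -0.61 in the longest. Their median levels in Triple_KO at 0 h were 27.8 FPM in the shortest quintile and 15.4 FPM in the longest, and were not matched. The difference between genotypes had no order by coding length, with medians of 0.35 in the shortest quintile, 0.41 in the next and 0.33 in the longest.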

How the data were processed

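Poly(A) RNA was sequenced from its 3′ ends in 50 libraries of 5 genotypes. Per the submitters' processing notes, reads were processed with CASAVA 1.8.2 and aligned to mm10 with Bowtie2. The deposited values are reads scaled to the library total (FPM, the same unit as RPM) for 22338 transcripts, and the rule by which the authors listed or filtered them is not given in the sources used here. RefSeq (GRCm38.p6) named 22008 transcripts and GENCODE M21 named 124. Identical repeats were dropped and transcripts summed to 19198 genes. All values were whole multiples of 1 read within 0.1, and edgeR 4.0.16 and DESeq2 1.42.0 were run on the recovered reads as alternatives (edgeR called 4043 genes at 8 h in Triple_KO).

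Duplicates were averaged per replicate. Genes that reached 5 FPM in 2 or more replicate means (9042) were fitted on log2(FPM + 1) with limma 3.58.1 over all 15 groups, and checked on simulated data. Alternatives were pseudocounts of 0.5 and 5 FPM, no filter or 20 FPM, median and TMM scaling, a replicate block, only the genotypes compared, and leaving out each replicate. Members, lists and tests were chosen with earlier results of these data known, and the m6A-marked list comes from general knowledge. The named genes are the 3 readers, the 10 largest falls and rises (at least 20 FPM, same sign in both replicates), the 6 highest held genes, the 6 largest differences from WT (at least 20 FPM at 0 h in both), the 6 largest falls alike in WT, and 3 of each list: the 2 with the smallest p and the one with the highest level. Duplicates and replicates of Triple_KO differed by more than counting noise (median chi-square per degree of freedom 1.44 and 1.36). Over all genotypes the values were 1.39 and 1.35. Libraries of A and B thus differed no more than duplicate libraries of the same replicate, and p-values do not measure a spread beyond that.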

Additional observations from a re-analysis of the deposited data

Results flagged for a closer look

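In 10 of 276 groups of 4 libraries of named genes, 1 library lay far from the other 3, where chance gives about 1 in 20 groups. In Triple_KO at 8 h these were the highest library of Nodal at 18.8 FPM and of Lsm4 at 229.6 FPM, and the lowest of Psmd2 at 259.6 FPM. In Triple_KO at 0 h they were the lowest library of Rpl4 at 2143 FPM and of Mnt at 7.02 FPM, and the highest of Cnot1 at 94.9 FPM, Lsm4 at 169 FPM and Psmg3 at 35.6 FPM. In WT at 0 h they were the highest library of Lars2 at 120.0 FPM and of Dnajb1 at 46.1 FPM.

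By the library total, the 8 h change differed between Triple_KO and WT, by limma's test of the difference at an adjusted p under 0.05, in 27 named genes, all with the higher change in Triple_KO. The differences on the log2 scale were 2.36 for Ccdc71, 2.31 for Rn4.5s, 2.21 for Rpp25l, 2.11 for Dnajb1, 2.08 for Fem1b and 2.07 for Rrs1. They were 1.40 for Ythdf1, 1.39 for Mcl1, 1.31 for Ythdf2, 1.18 for Mrpl12 and 0.97 for Hspa8. Pluripotency and signalling genes had 0.81 for Klf2, 0.79 for Utf1, 0.57 for Tfcp2l1 and 0.56 for Etv5, and regulators of decay, stress and the cell cycle had 0.76 for Ddx6, 0.62 for Birc5, 0.56 for Atf4, 0.47 for Hspa5, 0.38 for Bax and 0.16 for Hsp90ab1. Abundant genes of translation, splicing and the cytoskeleton had 0.56 for Eif1, 0.38 for Rpl4, 0.33 for Eef1a1, 0.28 for Hnrnpl, 0.27 for Tuba1b and 0.15 for Rps20. The median difference over all genes was 0.37, so that several of these lie below it. That median was -0.09 under median scaling and 0.06 under TMM. Of the 27 genes, only Ccdc71, Rn4.5s, Rpp25l, Fem1b, Rrs1, Mrpl12 and Hspa8 were called under all 3 scalings.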

How the results depend on the processing

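For 8 h against 0 h in Triple_KO the count of 2645 was 1005 to 1075 with 1 replicate left out and 4043 with edgeR. For 4 h against 0 h the count of 983 was 1565 with only the genotypes compared, 219 to 312 with 1 replicate left out and 1690 with edgeR. From 4 h to 8 h the count of 446 was 690 with a pseudocount of 5 FPM, 1253 with only the genotypes compared, 17 to 65 with 1 replicate left out and 925 with edgeR. The 651 differences from WT were 419 with no filter, 292 under median scaling, 146 under TMM, 184 to 418 with 1 replicate left out, 1289 with edgeR and 252 with DESeq2. The median 8 h change of -0.39 was -0.41 and -0.28 with pseudocounts of 0.5 and 5 FPM, -0.15 with no filter, -0.26 with a filter of 20 FPM, -0.039 under TMM, -0.38 without replicate A and 0.16 under median scaling, which turned its sign. Lost genes (444) were 80 under median scaling, 161 under TMM, 251 with a pseudocount of 5 FPM and 211 to 237 with 1 replicate left out, and held genes (1156) were 293, 582 and, with 1 replicate left out, 567 to 582. With 1 replicate left out a lone sample is assumed to vary like the others. The cause of these shifts was not tested.

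With the replicate letter as a block 2641, 983 and 660 genes were called for 8 h, 4 h and the difference. The letters did not pair the samples: deviations of the same letter correlated by -0.011 to 0.029 across genes.

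Of 105 named genes 95 kept their direction in every alternative, and 63 of the 90 called kept their call. The sign turned for Ythdf3 (0.33 under median scaling, 0.13 under TMM, 0.16 with DESeq2), Trim28 (0.42, 0.20 and 0.20), Ctnnb1 (0.54, 0.32 and 0.33), Hspa5 (0.56, 0.34 and 0.34, and from -0.099 to 0.015 with 1 replicate left out) and Uhrf1 (0.38, 0.16 and 0.17). It turned under median scaling for Slc2a3 (0.15) and Gas5 (0.17), and with 1 replicate left out for Mxd3 (-0.0073 to 0.092), Psmd2 (-0.0054 to 0.14) and Tuba1b (-0.0029 to 0.013). One read was worth 0.482 to 0.734 FPM in Triple_KO and 0.589 to 1.14 FPM in WT, which limits genes near 5 FPM.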

Other observations

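The replication-dependent histone H2A genes, examined after their values had been seen, fell together. All 13 H2ac genes tested were lower at 8 h and at 4 h in Triple_KO and at 8 h in WT, with medians of -2.70, -2.26 and -2.85 on the log2 scale, and the changes at 8 h in Triple_KO ran from -3.11 to -1.77. All 13 were lower in Triple_KO under all 3 scalings, none differed between the genotypes by limma's test, and 2 of them share their values with another gene. Reads of these near-identical copies cannot be told apart, and the mRNAs of this family mostly lack a poly(A) tail, so only the tailed fraction was counted.

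The 11 genes that were lost in WT and held in Triple_KO by the library total were also named after their values had been seen. They were Aen, Apex1, Fbxo22, Imp3, Knop1, Mrpl36, Mymx, Pcbp1, Pip4p1, Pmm1 and Tomm5. Apex1, a DNA repair endonuclease, changed by -0.24 in Triple_KO and -1.48 in WT, and Aen, an exonuclease and p53 target, by -0.04 and -1.64. Imp3, a component of the machinery that processes ribosomal RNA, changed by -0.12 and -1.75. Esrrb and Sall4, transcription factors of pluripotency, were among the 60 genes with a higher change in Triple_KO under all 3 scalings, with differences of 1.42 ± 0.16 and 1.28 ± 0.19. Esrrb had 89.6 FPM in Triple_KO at 8 h, against 197 FPM at 0 h, and 42.2 FPM in WT at 8 h, against 248 FPM at 0 h (means of 4 libraries). The nuclear noncoding RNA Neat1 was another, with a difference of 1.56 ± 0.27.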
